A study of Mus musculus with 64 samples.

Results

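The features described here are 187 spots of a mouse microarray, chosen from one set of arrays of 3T3-L1 adipocytes and measured in another. In the choosing set their signal was lower in cells given aspirin and troglitazone after TNF than in cells given TNF alone, while TNF and vehicle cells differed little. They were chosen among the 6664 features with an identifier beginning MSK, out of 6963 features in all. The choice used the odd-numbered arrays only, 11 in each group. A member had a mean difference between TNF and vehicle below 0.15 in size and a mean difference between the drug-treated group and TNF of -0.3 or less. Sizes and tests below come from the even-numbered arrays, which were not used for choosing, unless odd-numbered arrays are named.

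3T3-L1 is a mouse fibroblast line that is differentiated into fat cells in culture. The combination group (TNF+ASA+TGZ, 21 arrays, 10 of them even-numbered) had 48 h of TNF (3 ng/ml), followed by 24 h of 5 mM ASA together with 10 µM TGZ. The TNF group (21 arrays, 10 even-numbered) had 3 ng/ml TNF for 48 h and for the 24 h after that. The vehicle group (22 arrays, 11 even-numbered) was kept for the final 24 h in 0.2% bovine serum albumin medium. All cells were used 8 to 12 days after differentiation was started. Titles call the last group vehicle, but its source text lists the same 48 h of TNF as the other groups, so whether it was exposed to TNF is not settled. It is likewise unclear from the labels if TNF was still given alongside the drugs. In the combination against TNF, adding the drugs and removing TNF therefore cannot be told apart. Each array compared Cy5-labelled RNA of 1 culture with a Cy3-labelled pool of RNA from untreated differentiated cells.

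TNF is an inflammatory cytokine that binds its receptors on fat cells, activates NF-κB and stress kinases, lowers the expression of many adipocyte genes and impairs the response to insulin. ASA was taken to mean acetylsalicylic acid, or aspirin, and TGZ to mean troglitazone. Troglitazone is a thiazolidinedione, a ligand of the nuclear receptor PPARγ, which drives adipocyte gene expression and can hold back inflammatory genes. Salicylates at high dose inhibit cyclooxygenases and the kinase that activates NF-κB. A transcript lowered by the drugs but not moved by TNF would be one whose drug response is no return from a TNF effect.

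Identifiers of the features give a plate and a well (MSK22d2 is plate 22, row d, column 2). None of them (0 of 6963) matched a gene table given here, so the features are reported by identifier, with no gene name or sequence, and the adipocyte identity of the cells could not be checked against marker genes. Values are the authors' deposited log ratios, taken as log2 of sample over pool. A difference of -0.3 is then a fold of 1.23 between the groups. The mean of a feature over the 22 vehicle arrays lay between -0.207 and 0.428, with a median size of 0.02, while single vehicle arrays lay further from 0, so only differences between groups are read. From the dyes, the likely direction is sample over pool, which the labels do not state. Were the ratio pool over sample, every difference below would change sign and the members would be higher, not lower, in the combination. Of 2016 pairs of arrays, 33 had a correlation under -0.3 over all features, with a lowest r of -0.707, and all 33 included a vehicle array.

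The lower signal in the combination was also present in arrays that had no part in the choice. Of the 187 members, 184 had a lower mean in the combination than in TNF in the even-numbered arrays, and 101 (54%) passed the test as lower. None passed as higher (0 of 187), where 3.16% of all features did. At an unadjusted p under 0.05 in limma, 148 members were lower and 1 higher, against 12.3% and 9.29% of all features. The test was limma on all 6963 features of the 31 even-numbered arrays, with p-values adjusted by Benjamini-Hochberg over all features and a threshold of 0.05. The same test called 5.46% of all features lower. The median difference over the members was -0.431 log2 units, with quartiles of -0.51 and -0.297, while the median over all features was 0.023. At base 2 the median is 0.742-fold. In the odd-numbered arrays, which chose the members, the median was -0.385. With arrays scaled to a common spread the members were chosen anew as 169 features, of which 33 passed as lower, against 1.49% of all features, with a median of -0.396. In these cultures, fewer cells of a kind and less RNA per cell cannot be told apart.

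The member with the lowest difference in the odd-numbered arrays, -1.12, was MSK22d2. In the even-numbered arrays its deposited value ran from -1.62 over a median of -0.98 to -0.52 in the combination, against -0.82, 0.095 and 0.61 in TNF and -0.46, 0.15 and 0.53 in vehicle. The combination lay below vehicle on all 10 arrays with no overlap, while 6 of 10 combination arrays lay below the lowest TNF array. The difference from TNF was -0.99 (SE 0.16, limma adjusted p = 8.64e-05), which is 0.505-fold at base 2. Against vehicle it was -1.05 (SE 0.156, limma adjusted p = 4.36e-06).

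For this feature TNF and vehicle were also close in the even-numbered arrays, while closeness in the odd-numbered arrays was required by the rule. The difference between TNF and vehicle was -0.06 with a 95% interval of -0.38 to 0.25. The lower bound of that interval lies well short of the difference in the combination, although it does not show that TNF had no effect.

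MSK19j13, the next lowest in the odd-numbered arrays at -0.98, showed the same pattern. Its values were -1.67, -0.835 and -0.17 in the combination (lowest, median, highest), against -0.44, 0.15 and 0.41 in TNF and -0.55, -0.04 and 0.37 in vehicle. Of the 10 combination arrays, 9 lay below every TNF array and 9 below every vehicle array. The difference was -0.92 from TNF (SE 0.147, limma adjusted p = 6.52e-05) and -0.82 from vehicle (SE 0.143, limma adjusted p = 4.61e-05). Between TNF and vehicle it was 0.11, with a 95% interval of -0.18 to 0.4.

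MSK42d12 ranked among the members furthest below vehicle. It had -1.6, -1.025 and -0.35 in the combination, against -0.85, -0.125 and 0.48 in TNF and -0.55, -0.07 and 0.36 in vehicle. All 10 combination arrays lay below the TNF mean and below the vehicle mean. The differences were -0.83 from TNF (SE 0.161, limma adjusted p = 0.000906) and -0.92 from vehicle (SE 0.157, limma adjusted p = 3.33e-05), and TNF differed from vehicle by -0.09 (95% interval -0.41 to 0.23).

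**Figure D1:**
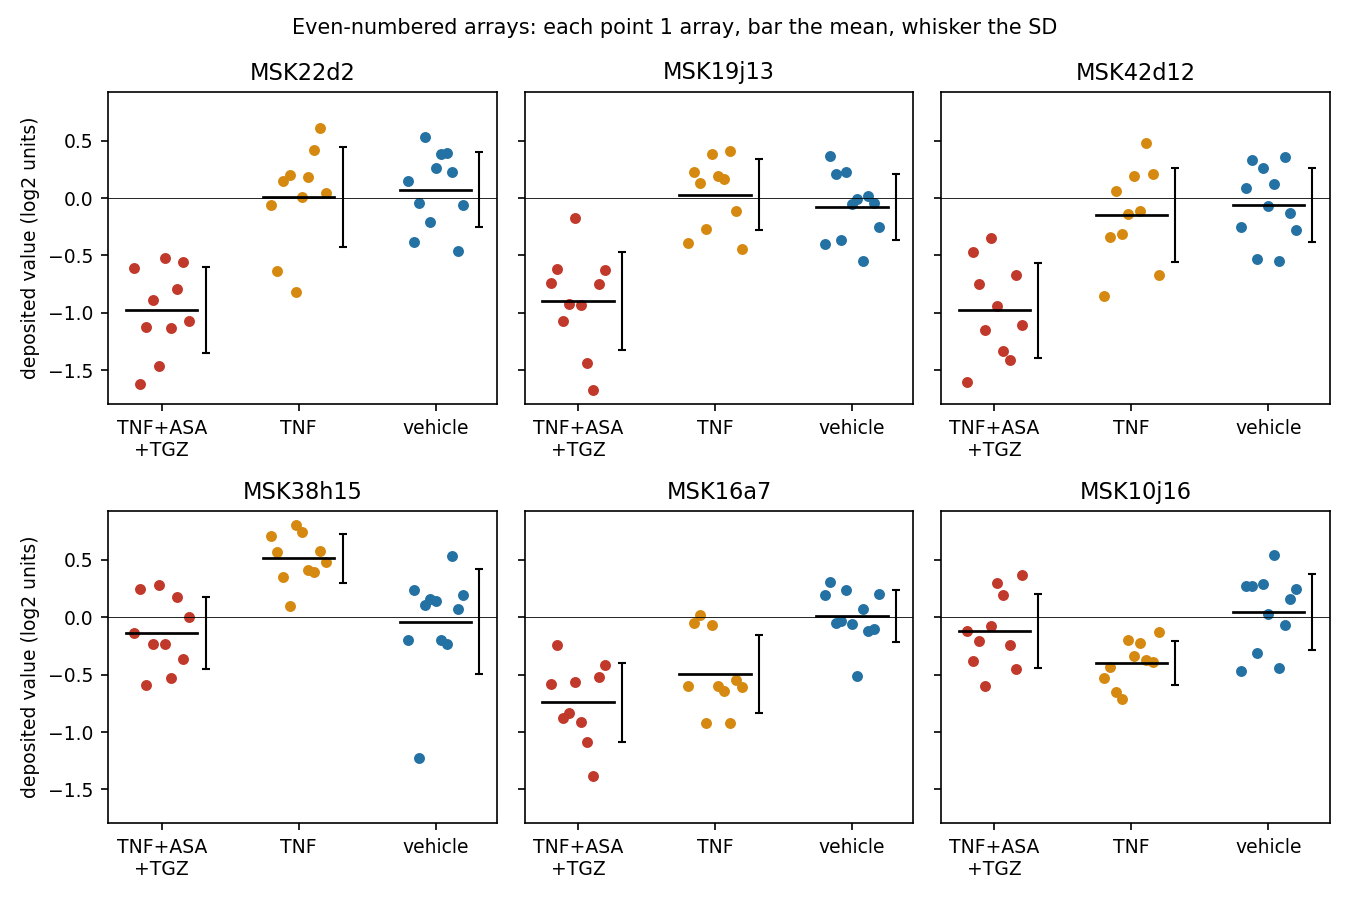
Deposited values (log2 units) of 6 members on the even-numbered arrays, with the combination at the left, TNF in the middle and vehicle at the right of each panel; points are arrays, bars means and whiskers SDs. In the upper row (MSK22d2, MSK19j13, MSK42d12) the combination mean lies below those of both other groups, with overlap of single arrays except for MSK22d2 against vehicle, whereas in the lower row TNF lies above vehicle (MSK38h15) or below it (MSK16a7 and MSK10j16).

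Most members moved less than these. Differences from TNF ran from -0.986 to 0.275, and 139 of 187 (74.3%) again reached -0.3 or less. Members with the lower odd-numbered differences tended to have the lower even-numbered ones, with a Pearson r of 0.438 across the 187 members, which share arrays. The 28 members at or below -0.5 in the odd-numbered arrays had an even-numbered median of -0.478, and 23 of them passed the test as lower. The 51 members between -0.5 and -0.4 had a median of -0.446 with 27 lower, and the 108 members above -0.4 had a median of -0.384 with 51 lower.

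In 4 members every combination array lay below every TNF array, against 0.172% of all features, and these 4 were picked out after their values were seen. They were MSK03d11 (difference -0.58), MSK07k6 (-0.47), MSK17d16 (-0.6) and MSK29n23 (-0.52). All 4 passed the test, with limma adjusted p-values of 0.000312 to 0.0375, on the same arrays that picked them. TNF exceeded vehicle in MSK03d11 by 0.52 (limma adjusted p = 0.00254), in MSK17d16 by 0.38 (0.0112) and in MSK29n23 by 0.4 (0.0392). None of these passed as different between the combination and vehicle. MSK07k6 was lower in the combination than in vehicle by -0.35 (limma adjusted p = 0.00105), with TNF and vehicle 0.12 apart (0.242). In 6 members every combination array lay below every vehicle array, against 1.29% of all features, and in 0 members did every TNF array lie below every vehicle array, against 1.09%.

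Only 3 members lay on the other side. MSK10j16 exceeded its TNF mean in the combination by 0.27 (limma adjusted p = 0.191), MSK04h13 by 0.05 (limma adjusted p = 0.863) and MSK19k18, named here after its value was seen, by 0.01 (limma adjusted p = 0.977). MSK10j16 had been at -0.35 and MSK04h13 at -0.3 in the odd-numbered arrays.

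**Figure D2:**
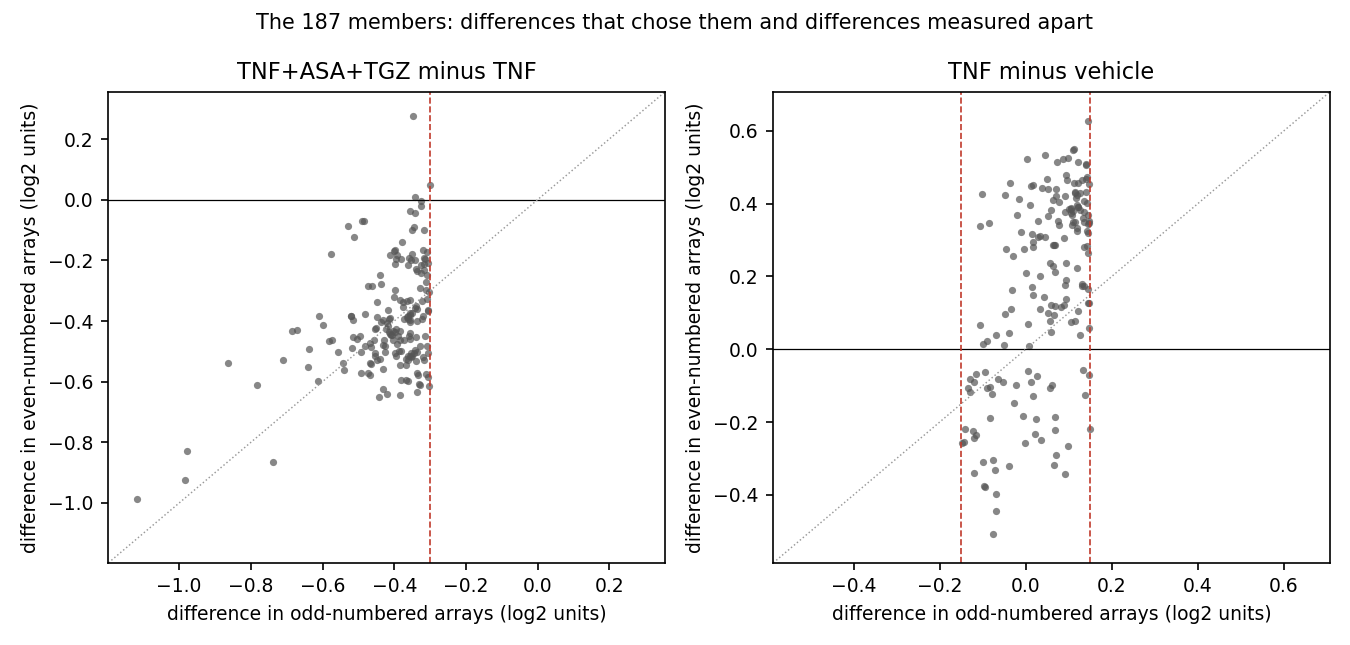
Differences of the 187 members in the odd-numbered arrays that chose them (horizontal) and in the even-numbered arrays (vertical), in log2 units, for the combination minus TNF (left) and TNF minus vehicle (right); dashed red lines are the thresholds and the dotted line marks equal values. On the left 184 points lie below 0, and on the right many points lie above 0.15 although none could in the odd-numbered arrays.

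The other part of the choice, little difference between TNF and vehicle, was met by fewer members in the even-numbered arrays. TNF lay above vehicle for 136 members and below it for 51, and the median difference was 0.237, against -0.0301 over all features. By limma 70 members (37.4%) passed as higher in TNF than in vehicle and 14 (7.49%) as lower, where the test called 20.5% of all features higher and 25% lower. A difference below 0.15 in size was seen for 51 members (27.3%), and 29 (15.5%) met both parts of the rule again. For 20 members the 95% interval of the difference lay wholly between -0.3 and 0.3. Among the other 2582 MSK features whose odd-numbered difference between TNF and vehicle was below 0.15 in size, the even-numbered median was -0.0294, with 4.45% passing as higher and 13.9% as lower.

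The label of a change by the drugs alone therefore fitted some members and not others. In the odd-numbered arrays 134 of the 187 members already had TNF above vehicle, and 63 lay above 0.1, near the upper threshold. TNF arrays entered both parts of the rule, and the same even-numbered TNF arrays enter both comparisons, so the 2 sets of differences are not independent.

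MSK38h15 and MSK42c12 had the largest rises in TNF over vehicle among the members, ranked on the values given here. MSK38h15 had -0.59, -0.185 and 0.28 in the combination, 0.1, 0.525 and 0.8 in TNF and -1.23, 0.11 and 0.53 in vehicle. TNF exceeded vehicle by 0.55 (SE 0.143, limma adjusted p = 0.00269), the combination was lower than TNF by -0.65 (SE 0.147, limma adjusted p = 0.00458), and the combination differed from vehicle by -0.1 (95% interval -0.39 to 0.19). Every TNF array lay above the vehicle mean, and every combination array lay below the TNF mean. Without vehicle array 6 TNF exceeded vehicle by 0.432 (limma adjusted p = 0.00271).

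MSK42c12 had -0.39, 0.12 and 0.52 in the combination, 0.19, 0.575 and 0.93 in TNF and -1.92, 0.14 and 0.58 in vehicle. Its lowest vehicle value stood far below the median of its group, whose SD was 0.805. TNF exceeded vehicle by 0.63 (SE 0.211, limma adjusted p = 0.0163), and by 0.443 (limma adjusted p = 0.026) without vehicle array 6. Its difference between the combination and TNF, -0.46, did not pass the test (limma adjusted p = 0.204).

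MSK16a7 and MSK10j16 stood at the other end. MSK16a7 had -1.38, -0.705 and -0.24 in the combination, -0.92, -0.6 and 0.02 in TNF and -0.51, -0.03 and 0.31 in vehicle. It was lower in TNF than in vehicle by -0.51 (SE 0.129, limma adjusted p = 0.00229) and lower in the combination than in vehicle by -0.75 (SE 0.129, limma adjusted p = 3.45e-05), and its difference between the combination and TNF was -0.25 (limma adjusted p = 0.28). MSK10j16 had -0.6, -0.165 and 0.37 in the combination, -0.71, -0.38 and -0.13 in TNF and -0.47, 0.16 and 0.54 in vehicle. TNF was lower than vehicle by -0.44 (SE 0.123, limma adjusted p = 0.00454).

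Against vehicle the members were lower in the combination by less than against TNF. Of the 187 members, 170 had a lower mean in the combination than in vehicle, and 60 (32.1%) passed as lower by limma, against 18.8% of all features called lower. None passed as higher (0 of 187), where 17.6% of all features did, and at an unadjusted p under 0.05 in limma 72 were lower and 0 higher, against 24.9% and 22.7% of all features. The median difference was -0.181, with quartiles of -0.346 and -0.0751, and the median over all features was -0.0333. In the odd-numbered arrays the median between the combination and vehicle was -0.346. The highest values were those of MSK42h21, 0.2 higher in the combination than in vehicle (limma adjusted p = 0.35), and MSK22c21, 0.19 higher (limma adjusted p = 0.407). Without vehicle array 6 these differences were 0.148 (limma adjusted p = 0.49) and 0.02 (limma adjusted p = 0.912). Each of the 3 comparisons shares arrays with the other two, so their counts are not separate evidence.

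**Figure D3:**
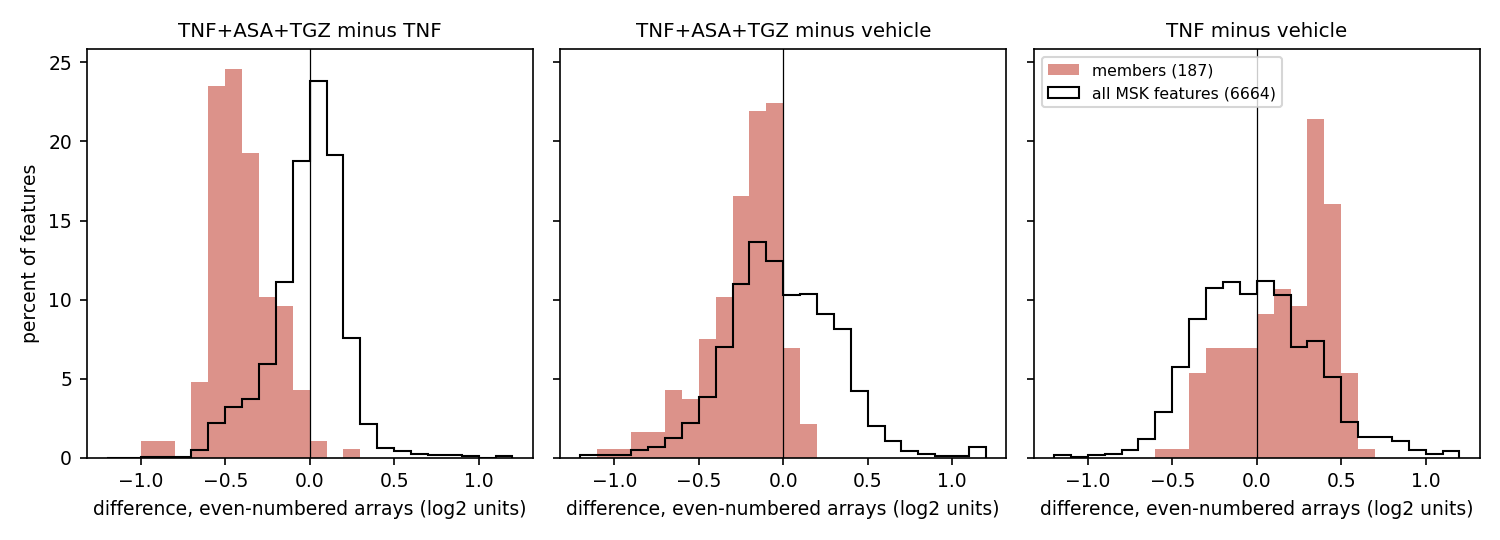
Percent of the 187 members (filled) and of all 6664 MSK features (line) by their difference in the even-numbered arrays (log2 units), for the combination minus TNF, the combination minus vehicle and TNF minus vehicle; the outermost bins also hold MSK features beyond the axis. The members' medians are -0.431, -0.181 and 0.237, and in the last panel the members pile up between 0.3 and 0.5.

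Array by array, most members lay below their TNF mean on every combination array, by amounts that varied. The share of the 187 members below their even-numbered TNF mean ran from 75.9% (142 members, array 10) to 95.2% (178 members, array 14) in the combination, with a median of 91.4%. It ran from 31% to 77% in TNF, whose own mean is the mark, and from 44.9% to 78.1% in vehicle. The share of combination array 10 thus lay within the ranges of both other groups. The mean over the members on an array had a median of -0.247 in the combination (-0.495 to -0.0032), 0.155 in TNF (0.0324 to 0.263) and 0.0735 in vehicle (-0.646 to 0.167). The combination and TNF arrays did not overlap in this mean. Combination arrays 4 and 10 were the highest of their group, and vehicle array 6 lay below every other even-numbered array.

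A pair of arrays stood apart from their groups on these features. Vehicle array 6, at a mean of -0.646, is in the measuring set, and TNF array 15, at -0.341, is in the choosing set, where the other odd-numbered TNF arrays had means above 0. Array 6 held the lowest even-numbered vehicle value for 119 of the 187 members, and for 2270 of the 6664 MSK features. Array 15 held the lowest odd-numbered TNF value for 114 members and for 1333 MSK features. Over all features these arrays had SDs of 0.6 and 0.557, where the medians of their sets were 0.216 and 0.401. Such SDs were not limited to them. In the choosing set vehicle array 17 had an SD of 0.5931 and combination array 13 one of 0.6255. Their means over the members were 0.2052 and -0.1231.

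**Figure D4:**
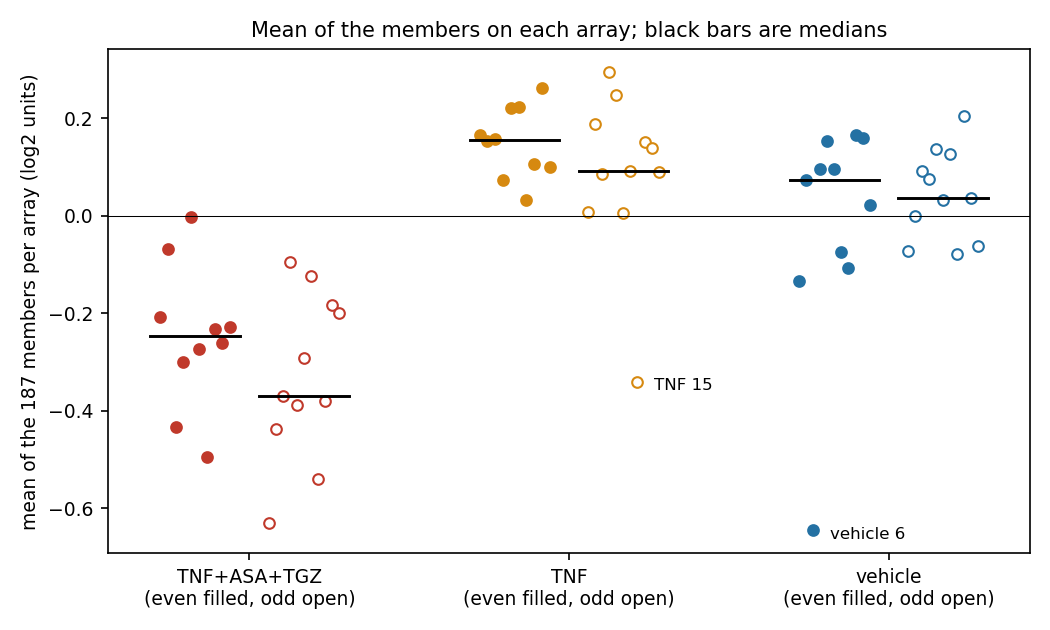
Mean of the 187 members on each array (log2 units), with the combination at the left, then TNF and vehicle; filled points are even-numbered arrays, open points odd-numbered arrays that chose the members, and black bars medians. Even-numbered combination arrays all lie below 0 and even-numbered TNF arrays above 0, and vehicle array 6 and TNF array 15 lie far below their groups.

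Without vehicle array 6, 132 members (70.6%) passed as lower in the combination than in TNF, where 8.06% of all features were lower and 4.38% higher. This array is in neither group and enters that test only through the shared estimate of the spread. Against vehicle 77 members (41.2%) were lower in the combination, with a median of -0.261, beside 19% of all features lower and 16.8% higher. Between TNF and vehicle 55 members (29.4%) were higher and 16 (8.56%) lower, with a median of 0.142, beside 18.8% and 23.9% of all features. When TNF array 15 was left out of the choice, 149 features were members, 117 of them shared with the 187. Their even-numbered median was -0.378 for the combination minus TNF, with 70 lower, and 0.0937 for TNF minus vehicle, with 39 higher and 17 lower. With both arrays left out the medians of these 149 were -0.378 and 0.059, and 91 of them were lower in the combination than in TNF. Leaving out vehicle array 6 could not move the median against TNF. Leaving out TNF array 15 acted only through the choice of members. With array 15 in the choice the median against TNF was -0.431, and without it -0.378. For TNF minus vehicle these medians were 0.237 and 0.0937.

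The members also varied together. After group means were removed, the correlation between 2 members over the 31 even-numbered arrays averaged 0.243, against 0.00701 over all pairs of the 6664 MSK features. Without vehicle array 6 it averaged 0.191. These correlations are descriptive, since members share arrays and were chosen on related values. Medians of the even-numbered arrays ran from -0.05 to 0.04, so deviations up and down largely cancel in the average over all MSK pairs. The members were all chosen for the same direction of change, so the averages are not like for like. Without array 6, 85 members followed the mean of the other members with an r above 0.5, and the remaining 102 had an r between -0.396 and 0.498. This division was made after the values were seen and is described with no test.

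The linked and the other members had unlike profiles. The 85 linked members had medians of -0.497 for the combination minus TNF, -0.0988 for the combination minus vehicle and 0.383 for TNF minus vehicle. The other 102 had medians of -0.344, -0.295 and 0.0111. In the odd-numbered arrays the medians of the linked members were -0.395 for the combination minus TNF and 0.0918 for TNF minus vehicle, and those of the others -0.379 and 0.0236.

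The arrays that stood apart did so mainly on the linked members. On vehicle array 6 the linked members had a median of -1.14, which was -1.22 from their mean on the other even-numbered vehicle arrays, while the others had a median of -0.105. On TNF array 15 the linked members lay -0.697 from the mean of the other odd-numbered TNF arrays and the others -0.272. Without array 6 the linked members still had a median of 0.27 for TNF minus vehicle and -0.218 for the combination minus vehicle, and the others -0.0025 and -0.329. What these 2 arrays owe to culture, RNA or hybridization was not tested.

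**Figure D5:**
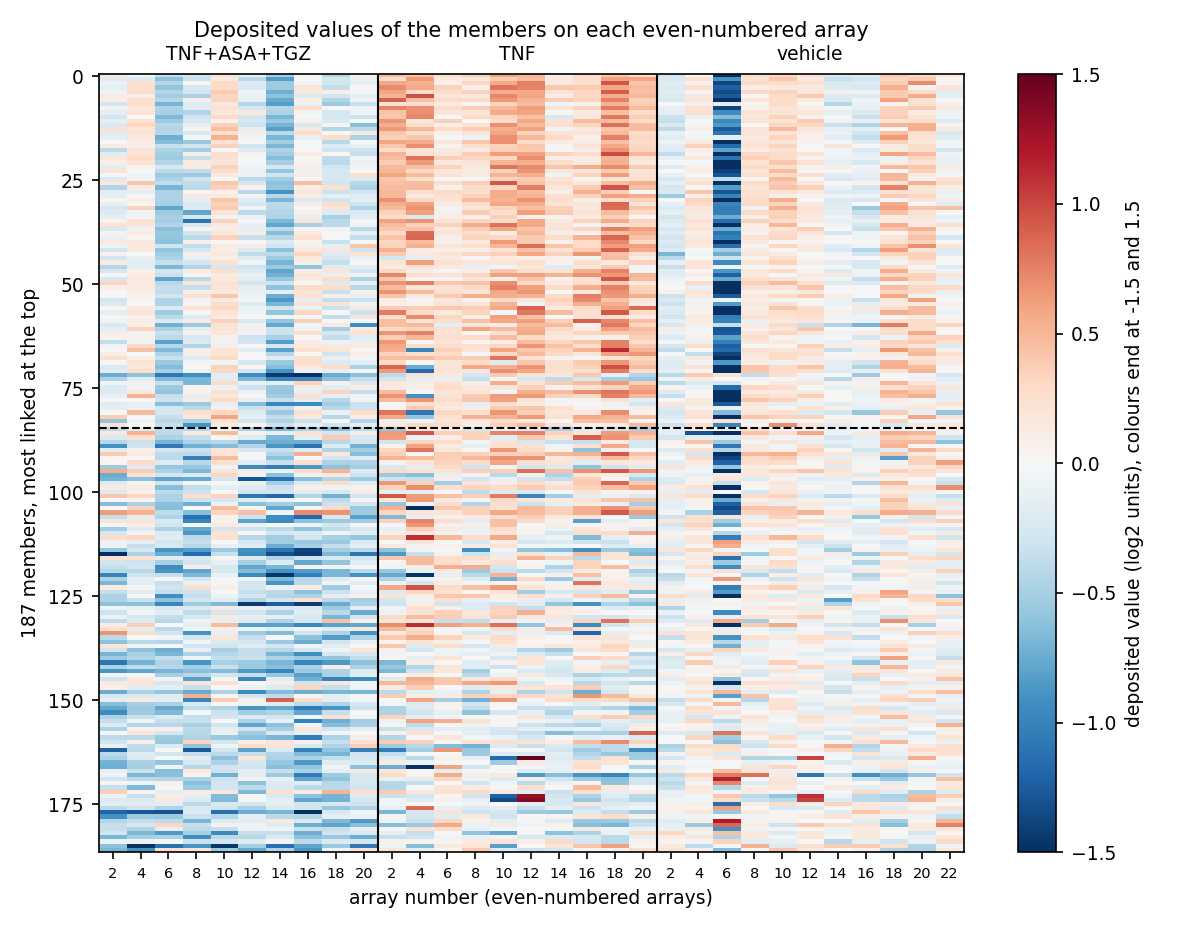
Deposited values (log2 units, blue low and red high, colours ending at -1.5 and 1.5) of the 187 members (rows, most linked to the other members at the top) on the even-numbered arrays (columns), with the combination at the left, TNF in the middle and vehicle at the right; the dashed line ends the 85 linked members. The linked members are high on the TNF arrays and very low on vehicle array 6, and the others are low mainly on the combination arrays.

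Within groups, single members had a median SD of 0.28 between combination arrays, 0.225 between TNF arrays and 0.352 between vehicle arrays, against 0.262, 0.222 and 0.239 over all MSK features. The median SE of a member's difference from TNF was 0.135.

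A division between arrays numbered up to 11 and from 12 was taken from earlier results of these data, and the labels name no batch. With 5 arrays in each group, the arrays numbered up to 11 gave 175 members below 0 for the combination minus TNF and a median of -0.382. With 5 combination, 5 TNF and 6 vehicle arrays, those from 12 gave 181 below 0 and a median of -0.46. By limma 2 members passed as lower in the first range, MSK15g8 and MSK40l23, named after their values were seen, and 86 in the other, against 0.302% and 3.69% of all features. None was higher in either range, against 0.732% and 1.67% of all features. At an unadjusted p under 0.05 in limma, 72 members were lower and 0 higher in the first range, against 8.55% and 6.05% of all features. In the other range 135 were lower and 0 higher, against 9.58% and 8.65%. The median SE was 0.202 in the first range and 0.146 in the other. For TNF minus vehicle the medians were 0.302 and 0.15, and for the combination minus vehicle -0.088 and -0.298. Between TNF and vehicle 6 members were higher and 1 lower in the first range (9.91% and 9.46% of all features). In the other range 16 were higher and 9 lower (12.7% and 15.8%). With limma p-values under 0.05 left unadjusted, 61 members were higher and 7 lower in the first range (19.4% and 21% of all features). The other range had 45 higher and 20 lower (18.6% and 23.4%). Between the combination and vehicle 28 members were lower and 0 higher in the first range (8.69% and 8.23% of all features), and 58 lower and 0 higher in the other (12.8% and 12.5%). At an unadjusted p under 0.05 in limma, 43 were lower and 0 higher in the first range, against 18.4% and 15.8% of all features. In the other range 99 were lower and 0 higher, against 20.6% and 19.4%. The direction of the 3 medians was thus the same in both ranges, and whether their sizes differ was not tested.

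Members lay on all 26 MSK plates, in 16 well rows and 24 well columns, where 2.81% of MSK features were members. The share was highest on plates 15 (15 of 226 features, 6.64%) and 42 (16 of 252, 6.35%) and in row d (26 of 388, 6.7%). There were 10 pairs of members in neighbouring wells. Without vehicle array 6, their within-group correlations ran from -0.252 to 0.736 with a median of 0.251, against 0.19 over all 17391 pairs. With the mean of each well row removed from every array, 120 of the 187 members were lower in the combination than in TNF, against 7.2% of all features, with a median of -0.413.

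The thresholds cut through a continuous range of odd-numbered differences. The 10 members nearest to the limit of -0.3 had odd-numbered differences of -0.308 to -0.301 and an even-numbered median of -0.366, and the 10 features just outside it had -0.299 to -0.291 and -0.189. At the upper limit of 0.15 between TNF and vehicle, the 10 members just inside had odd-numbered values of 0.145 to 0.149 and an even-numbered median between TNF and vehicle of 0.346. The 10 features just outside, at 0.15 to 0.156, had 0.374. The same rule with the drug difference turned upward gave 303 MSK features. Their median for the combination minus TNF was 0.491 in the odd-numbered and 0.201 in the even-numbered arrays, beside -0.385 and -0.431 for the 187 members. Whether these shifts differ was not tested.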

How the data were processed

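RNA of 64 cultures was measured on 2-colour arrays from 20 µg of total RNA each, and arrays were grouped by title. The deposited values were treated as ratios on a log2 scale. The Cy5 sample and the Cy3 pool are given per the labels, the direction of the ratio is not. They run from -3.48 to 4.16 with 0 missing values. How background, normalization and filters were handled, and the log base, is not given in the sources used here. Scanner intensities were not analysed here.

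Members and lists were chosen with earlier results of these data known. Group means were fitted on the 31 even-numbered arrays with limma 3.58.1 (lmFit, eBayes) in R 4.3.3, with no block, over all 6963 features. The call threshold was an adjusted p of 0.05, two-sided. The fit was run on simulated data with independent arrays, so that run does not cover arrays that deviate together. The fit takes arrays as independent. The labels' 6 collection days and 5 passages are not tied to arrays, so odd- and even-numbered arrays may share them. For these reasons p-values may be too small, while an unmodelled pairing of same-numbered arrays, described next, can make them too large. No 2 arrays were identical (0 of 2016 pairs).

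Same-numbered arrays deviated together, with r over 0.1 in 10 of 10 even-numbered pairs of combination and TNF, 10 of 10 of TNF and vehicle and 9 of 10 of combination and vehicle. The labels state no pairing, and the tests reported here did not pair the arrays. With array number as a block, 125 members passed for the combination minus TNF, where 101 passed without it. The counts were 64 against 60 for the combination minus vehicle, and 101 against 84 for TNF minus vehicle. Shares of all features called with this block are not given, so whether the gain was particular to the members was not tested.

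Without gene symbols, the rule for named features took the 2 members lowest in the odd-numbered arrays. It added the 2 most positive and the 2 most negative members in each even-numbered comparison. Gene lists and marker lists could not be used. Figures used Python 3.11.15 with matplotlib 3.10.9.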

Additional observations from a re-analysis of the deposited data

Results flagged for a closer look

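Even-numbered TNF and combination arrays were examined for a single array far from its group, for the mean of the members and for each named member. Of 22 such groups of 10 arrays, 1 held such a value, and chance alone flags about 1 in 20 groups. For MSK42h21 a TNF array had -1.08, while the next lowest TNF array had 0.07. This gap was 0.612 of the range of the group. The difference between TNF and vehicle for MSK42h21 was 0.39 (limma adjusted p = 0.055), and 0.535 (limma adjusted p = 0.0026) without TNF array 4.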

How the results depend on the processing

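All members that passed the tests of the combination against TNF or vehicle were lower in the combination under every setting run, but their number depended on the setting. In the order combination minus TNF, combination minus vehicle and TNF minus vehicle, 101, 60 and 84 members passed as reported. Scaling arrays to a common MAD gave 33, 32 and 14, quantile normalization 55, 34 and 23, numbers up to 11 alone 2, 28 and 7, and a test against a 1.2-fold difference 3 (MSK19j13, MSK22d2 and MSK40l23), 15 and 0. An adjusted p under 0.01 gave 39 and 16 for the comparisons with TNF, and numbers from 12 alone gave 25 for TNF minus vehicle. Scaled settings also chose members anew. The share of all features called lower in the combination than in TNF also moved, from 5.46% as reported to 1.49% with a common MAD. For numbers up to 11 alone it was 0.302%. For most other settings in this section, with arrays left out or blocked among them, this share is not given. Whether a change in count was particular to the members was not tested. Choosing with odd and even exchanged gave 68 members, of which 29 were among the 187, with 42, 37 and 3 passing (the last MSK03a20, MSK24a23 and MSK24m1) and a median of 0.0673 for TNF minus vehicle. A limit of -0.4 gave 79 members with 50, 32 and 38 passing and 16 meeting the unchanged rule again, and a limit of 0.10 between TNF and vehicle gave 109 members with 59 and 41 passing in the comparisons with TNF.

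Leaving out each even-numbered array gave 68 to 132, 54 to 77 and 67 to 91 members, 21 to 39 meeting the rule again, and medians of -0.456 to -0.395, -0.261 to -0.142 and 0.142 to 0.263. Leaving out each odd-numbered array from the choice, added after seeing the data, gave 149 to 214 members, with 70 to 116, 55 to 67 and 56 to 109 passing, 22 to 36 meeting the rule again and medians of -0.436 to -0.378, -0.246 to -0.137 and 0.0937 to 0.307. Without vehicle array 6 and TNF array 15, 47 of 149 passed for TNF minus vehicle, with a median of 0.059. A replicate block gave counts of 125, 64 and 101 and changed no call of a named member. Named members stayed on the same side of the threshold in 1202 of 1230 values; the sign turned in 15, of which 0 passed the test under either setting. Fewer arrays were fitted in the number ranges; for the other settings the cause was not tested. Other background corrections and filters could not be run without intensities, and signal over background is unknown.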
